A study of Danio rerio with 6 samples.

Results

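The Hedgehog genes described here are 9 genes of a signalling pathway that patterns the embryo: the ligand genes shha, shhb, ihha and ihhb, the receptor gene ptch1, the transcription factor genes gli1, gli2a and gli3, and the antagonist gene hhip. They were taken by gene symbol from the deposited expression table, which holds 25920 genes, and all 9 were present. Of these, 8 passed the filter on low counts, and ihhb did not. The study compared zebrafish that had been kept in DAPT, at 100 µM, with zebrafish kept in the solvent DMSO, from 60 hours post fertilization (hpf) to 96 hpf. DAPT blocks gamma-secretase, a protease needed for Notch receptors to signal. All fish carried the transgene Tg(myl7:mCherry), in which a heart muscle promoter drives a red fluorescent protein. There were 3 libraries per group. The labels give hearts as the tissue, while the series' design text speaks of embryos that were collected. The labels give neither the number of animals pooled nor whether replicates are separate clutches. P-values thus rest on library-to-library spread alone, part or all of which may be technical.

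Hedgehog ligands are secreted, lipid-bound proteins. In their absence the receptor Patched holds back the membrane protein Smoothened. Ligand binding releases Smoothened, and the Gli transcription factors then switch on target genes, among them ptch1, gli1 and hhip, whose products feed back on the pathway. These 3 are called response genes below. In zebrafish, shha and shhb are known from the floor plate of the neural tube. Transcripts of shha are also known from the notochord, pectoral fin bud and gut. The gene ihha is known from cartilage and bone, and ihhb from the notochord. Early Hedgehog signalling is also known to promote the formation of heart muscle progenitors in zebrafish.

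Libraries held 20542549 to 21808613 counts. Markers of tissues outside the heart were present in every library, and of 58 marker genes in 10 lists none was at 0 in all libraries. The gene myl7 (heart muscle) had a mean of 929 CPM with DMSO (reads of a gene scaled to a common library size), and rho, the rod photoreceptor opsin gene, had 1349 CPM. Levels below therefore cannot be read as those of heart cells. In such bulk samples fewer cells of a type and less RNA per cell cannot be told apart.

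With DAPT the Hedgehog ligand genes moved apart, and the response genes did too. Transcripts of ihha rose, those of shhb and hhip fell, and shha, ptch1 and gli1 rose by a small amount that depended on the scaling. In all, 4 of the 8 tested genes were higher with DAPT and 2 were lower at an adjusted p of 0.05 (edgeR's quasi-likelihood test, Benjamini-Hochberg adjustment over all 22092 genes tested). Over all genes tested 46.6% passed, 22.4% higher and 24.3% lower, so a call by itself was common in these data. The count also fell with fewer libraries: with any 1 left out, 1 to 3 of the 8 were higher, and 1 without DAPT replicate 1 or without DAPT replicate 3. Leaving out a library weakens the test for every gene. Over all genes tested 4940 were higher in the main fit and 4003 to 4876 with 1 library left out. With DESeq2, 2 were higher. The median log2 fold change of the 8 genes was 0.10, beside -0.00434 over all genes tested. The main scaling used TMM factors, which assume that most genes do not change. Under it 48.0% of called genes were higher with DAPT. With library totals alone 32.5% were, and in the deposited TPM (transcript abundance scaled to a fixed total, which also accounts for gene length) 24.9% were. Against the main scaling these moved the median gene by -0.0980 and -0.154 on the log2 scale, beside changes of 0.20 to 0.26 for shha, ptch1 and gli1. Calls are therefore given with both scales in view. In TMM-scaled CPM the groups did not overlap for 6 of the 8 genes, 4 higher and 2 lower with DAPT, beside 56.8% of all genes tested. In TPM they did not overlap for 5 of the 8, beside 57.4% of all genes tested: 1 was higher, beside 15.1%, and 4 were lower, beside 42.3%.

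Among the 4 ligand genes ihha (gene ID 619520), an Indian hedgehog gene, rose most. Its TPM was 9.96, 8.93 and 8.40 in DMSO replicates 1 to 3, and 12.4, 11.7 and 14.4 in the DAPT replicates. All DAPT libraries were above all DMSO libraries. Scaled by TMM, the DMSO libraries averaged 8.09 ± 0.883 CPM of ihha and the DAPT libraries 12.7 ± 1.12 (mean ± SD, n = 3). The log2 fold change was 0.65 ± 0.11 (standard error), with an adjusted p of 0.000377 by edgeR. The 95% interval of the log2 fold change was 0.42 to 0.89, which corresponds to a rise of 57.1% at the estimate. The rise passed in all 16 alternative fits, with an adjusted p of 4.91e-05 to 0.00435.

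The paralogue shhb (gene ID 30444), once named tiggywinkle hedgehog, moved the other way. Its TPM was 6.66, 6.63 and 7.32 with DMSO and 4.16, 4.47 and 5.07 with DAPT, so that every DAPT library was below every DMSO library. On the CPM scale shhb fell from 7.57 ± 0.293 to 5.61 ± 0.499, a log2 fold change of -0.43 ± 0.11 (95% interval -0.67 to -0.19, edgeR adjusted p = 0.00703). This fall also passed in all 16 alternatives, with an adjusted p of 0.00157 to 0.0388.

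For shha (gene ID 30269), the Sonic hedgehog gene and the most abundant of the ligand transcripts per length, the TPM values were 13.5, 13.2 and 16.3 with DMSO and 14.8, 14.8 and 15.7 with DAPT. These overlap, since DMSO replicate 3 was the highest of the 6 libraries. In TMM-scaled CPM the DAPT libraries were all above the DMSO libraries, at 24.8 ± 0.459 against 21.0 ± 2.15, and the log2 fold change of 0.24 ± 0.08 passed with an edgeR adjusted p of 0.0293. The call was kept in 6 of 16 alternatives, whose adjusted p was 0.00231 to 0.503, and was lost when any 1 library other than DMSO replicate 3 was left out. Without DMSO replicate 1 the adjusted p was 0.0859, without DMSO replicate 2 0.0894, and without DAPT replicates 1, 2 and 3 it was 0.0599, 0.0701 and 0.0938. With library totals alone the log2 fold change was 0.14 (adjusted p = 0.229).

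The fourth ligand gene, ihhb (gene ID 30299), was close to the limit of detection. It had 4 counts in each DMSO library and 6, 5 and 4 in the DAPT libraries, or 0.20 to 0.25 and 0.25 to 0.32 TPM. It was left out of the main fit. In the fit without a filter its log2 fold change was 0.34 ± 0.54 (adjusted p = 0.65, edgeR), so a difference was not detectable at this depth.

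**Figure D1:**
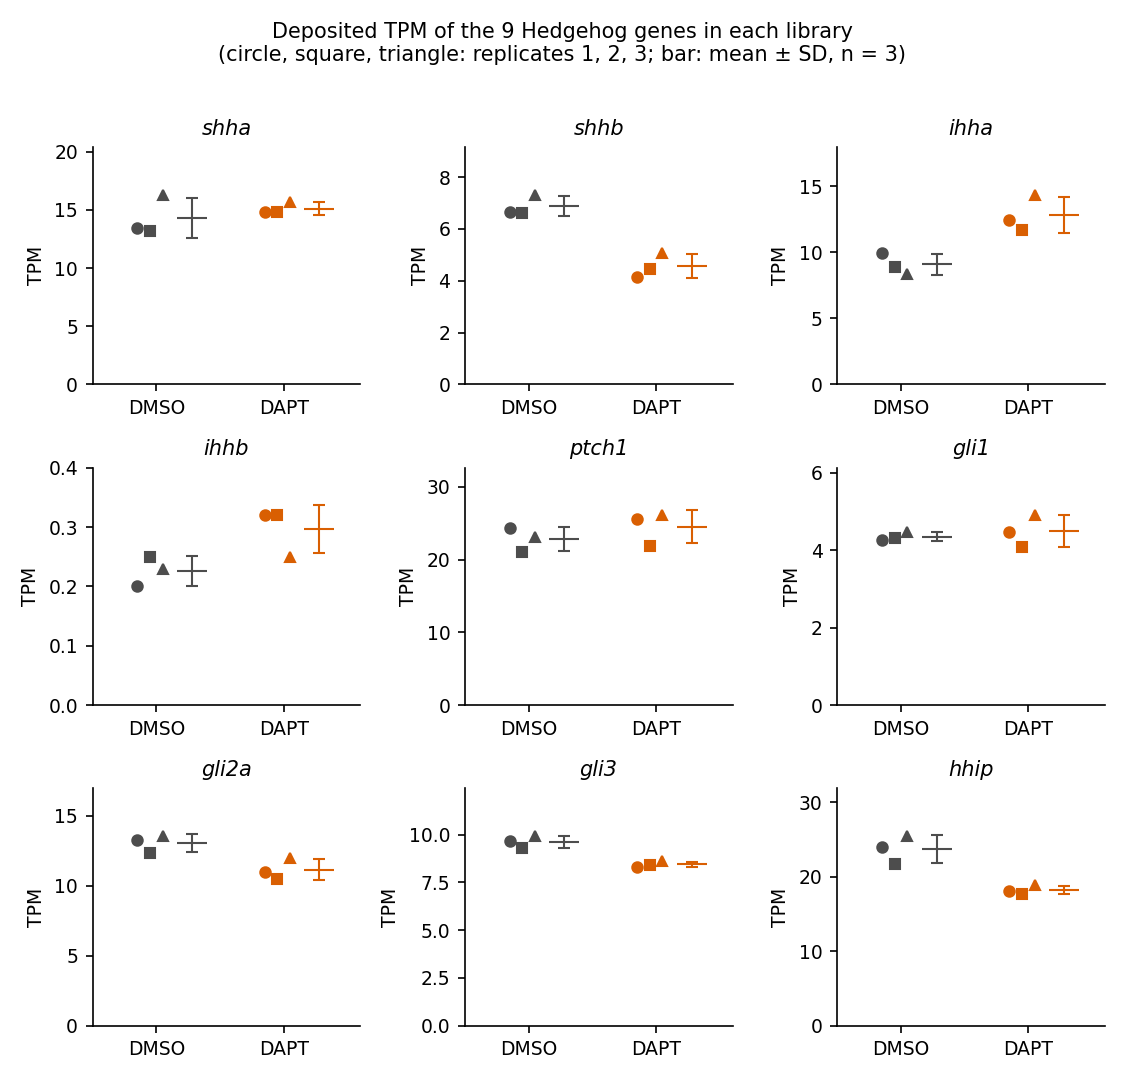
Deposited TPM (vertical axes, each from 0) of the 9 Hedgehog genes in the 3 DMSO and 3 DAPT libraries, with the mean and SD of each group. DAPT libraries lie above all DMSO libraries for ihha and below them for shhb, hhip, gli2a and gli3, while shha, ihhb, ptch1 and gli1 overlap.

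Among the response genes, hhip (gene ID 326102), which encodes a membrane protein that binds and sequesters Hedgehog ligands, fell. Its TPM was 24.0, 21.8 and 25.5 with DMSO and 18.1, 17.7 and 18.8 with DAPT. The groups did not overlap, and the DAPT libraries lay close together. In CPM the means were 63.0 ± 4.60 with DMSO and 53.8 ± 0.512 with DAPT, for a log2 fold change of -0.23 ± 0.06 (95% interval -0.36 to -0.09, edgeR adjusted p = 0.0103) that passed in all 16 alternatives (adjusted p 0.0016 to 0.0425). In RefSeq's annotation of the later build GRCz12tu, hhip overlaps the matrix protein gene frem3 and the gene si:dkey-27h10.2. The gene frem3 also fell, and had 19.4 ± 1.32 CPM with DMSO and 13.1 ± 0.247 with DAPT (log2 fold change -0.56 ± 0.08, adjusted p = 0.000116). The gene si:dkey-27h10.2 had 0.29 ± 0.18 and did not pass (adjusted p = 0.214). The notes do not say whether strand was used in counting, so how reads in the overlap were assigned is not known. All hhip counts were whole numbers. In the same annotation shha, shhb, gli1 and gli3 overlap 2, 1, 2 and 5 other genes, none of which is in the expression table. How reads there were assigned is not known either.

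The receptor gene ptch1 (gene ID 30189) had TPM values of 24.3, 21.0 and 23.1 with DMSO and 25.5, 21.9 and 26.1 with DAPT. The groups overlapped on this scale, with DAPT replicate 2 below 2 of the DMSO libraries. With TMM scaling its means were 64.0 ± 5.53 and 76.5 ± 5.70 CPM, and the lowest DAPT library, at 69.9, only just exceeded the highest DMSO library, at 69.8. The log2 fold change of 0.26 ± 0.07 passed with an edgeR adjusted p of 0.0136. It passed in 10 of 16 alternatives (adjusted p 0.00608 to 0.387) and was lost with library totals alone (0.16, adjusted p = 0.102), in TPM, and without DAPT replicate 1 (adjusted p = 0.0636) or DAPT replicate 3 (0.0672).

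For gli1 (gene ID 352930), an activator whose own transcription is a standard readout of the pathway, the TPM values were 4.25, 4.31 and 4.48 with DMSO and 4.48, 4.07 and 4.90 with DAPT. The DMSO libraries lay within the range of the DAPT libraries. Its CPM rose from 18.7 ± 0.164 to 21.4 ± 1.47, a log2 fold change of 0.20 ± 0.07 with an edgeR adjusted p of 0.0441. This was the weakest of the 6 calls. It was kept in 4 of 16 alternatives (adjusted p 0.029 to 0.805), and with the replicate number as a block it did not pass (adjusted p = 0.0637). It was also lost without each DMSO replicate (adjusted p = 0.0858, 0.079 and 0.058) and without DAPT replicates 1 and 3 (0.101 and 0.182). Its count was not whole in 1 library, so it may include reads shared with another gene.

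The other Gli genes, gli2a (gene ID 30154) and gli3 (gene ID 403042), did not pass. Their proteins act as activators or as repressors depending on the signal, and both genes are transcribed without it. In TPM, gli2a had 13.3, 12.3 and 13.6 with DMSO and 11.0, 10.5 and 12.0 with DAPT. The gene gli3 had 9.65, 9.28 and 9.93 with DMSO and 8.32, 8.38 and 8.60 with DAPT. Both were lower in every DAPT library on that scale, a pattern seen in 42.3% of all genes tested. After TMM scaling the groups overlapped, and the log2 fold changes were -0.07 ± 0.06 for gli2a (95% interval -0.21 to 0.07, edgeR adjusted p = 0.374) and -0.00604 ± 0.07 for gli3 (95% interval -0.15 to 0.14, adjusted p = 0.949).

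Ratios between genes of the same library do not depend on how libraries are scaled. They are given as descriptions, without a test, since the genes were chosen with earlier results of these data known. Each ratio or share below whose groups did not overlap holds ihha, shhb, hhip or gli3. The TPM of these genes did not overlap on its own, so such ratios are not separate evidence. No share over other gene pairs was computed, and of single genes 57.4% did not overlap in TPM. The 4 ligand genes together held 30.3, 29.0 and 32.2 TPM with DMSO and 31.7, 31.3 and 35.4 with DAPT. This sum overlapped between groups in TPM, but unlike a ratio it depends on the scaling. It leaves out the ligand gene dhh, which rose and is described with the wider list. In TMM-scaled CPM shha and ihha were higher in every DAPT library and the less abundant shhb was lower. The make-up of the ligand TPM differed. The share of shhb in the ligand TPM was 22.5 ± 0.477% with DMSO and 13.9 ± 0.692% with DAPT, and that of ihha was 29.9 ± 3.51% and 39.1 ± 1.63%. Neither share overlapped between groups. The share of shha was 46.8 ± 3.27% and 46.1 ± 1.54%, which overlapped. The ratio of ihha to shhb was 1.33 ± 0.175 in the DMSO libraries and 2.81 ± 0.191 in the DAPT libraries, and every DAPT library was above every DMSO library.

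The response genes also changed relative to each other. The ratio of ptch1 to hhip in TPM was 1.01, 0.963 and 0.907 with DMSO and 1.41, 1.24 and 1.38 with DAPT. That of gli1 to hhip was 0.184 ± 0.0124 and 0.246 ± 0.0150. In both cases the groups did not overlap. The ratio of gli1 to ptch1, by contrast, overlapped, at 0.191 ± 0.0154 and 0.183 ± 0.00671. The ratio of gli1 to gli3 was 0.452 ± 0.0120 with DMSO and 0.531 ± 0.0425 with DAPT, without overlap.

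Set against each other, the summed ligand TPM over the summed TPM of ptch1, gli1 and hhip was 0.577, 0.615 and 0.607 with DMSO and 0.659, 0.717 and 0.711 with DAPT. Every DAPT library was above every DMSO library. These sums are dominated by the abundant genes, and hhip makes up a large part of the response sum. On a log scale, where each gene counts equally, the mean log2 CPM of shha, shhb and ihha minus that of the response genes was -1.98, -1.93 and -1.96 with DMSO and -1.97, -1.83 and -1.84 with DAPT, and DAPT replicate 1 fell within the DMSO range. The ratio of sums thus differed between groups without overlap, while the log-scale difference overlapped. The ligand gene dhh, described below, was in neither the ligand sum nor the log-scale mean. Its TPM was 4.61, 5.24 and 4.32 with DMSO and 8.53, 6.29 and 7.42 with DAPT. Values with dhh included were not computed, so the overlap is stated for shha, shhb and ihha alone. Without dhh, the ligands and the response genes were not clearly separated in direction. Each group held genes that rose and a gene that fell.

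**Figure D2:**
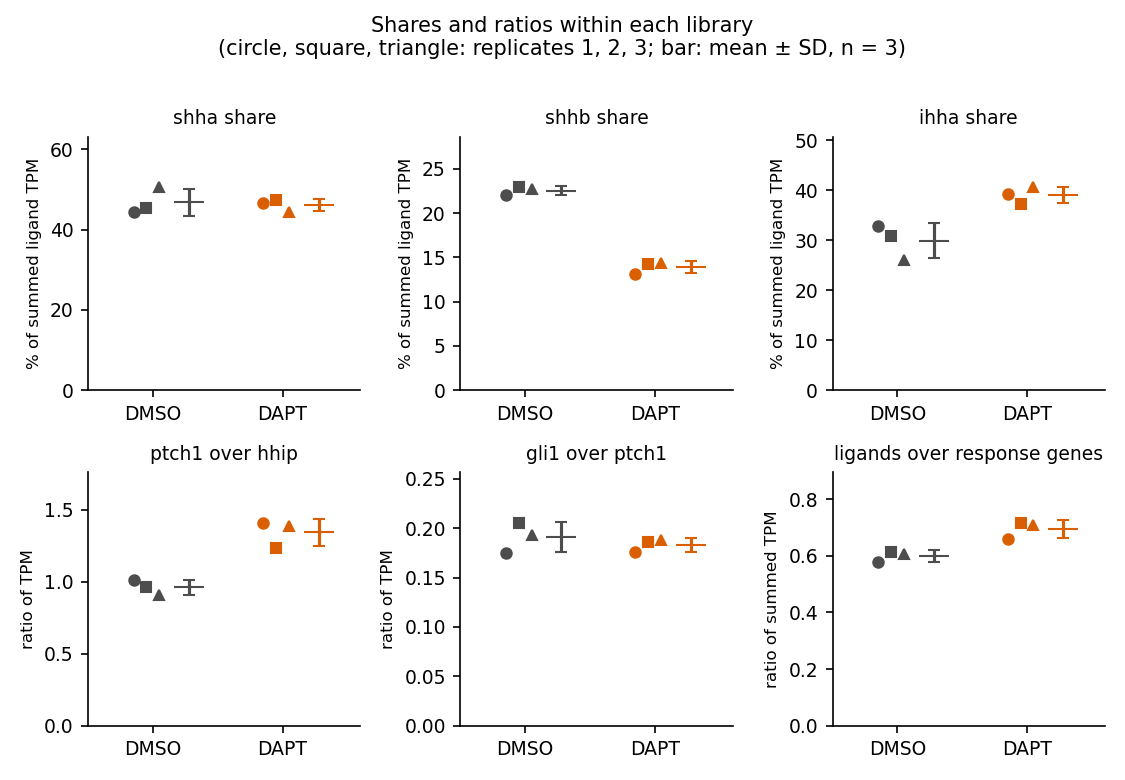
Upper row: shares (%) of shha, shhb and ihha in the summed TPM of the 4 ligand genes, per library; lower row: TPM ratios of ptch1 to hhip, gli1 to ptch1, and the ligand sum to the response sum, with group mean and SD. The shhb share, the ihha share and the ratios of ptch1 to hhip and of ligand sum to response sum do not overlap between groups. The shha share and the ratio of gli1 to ptch1 do.

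Per length, the order of the 9 genes differed between groups in few places. With DMSO, hhip (23.7 ± 1.87 TPM) and ptch1 (22.8 ± 1.69) were highest, followed by shha (14.3 ± 1.73), gli2a (13.1 ± 0.662), gli3 (9.62 ± 0.326), ihha (9.10 ± 0.793), shhb (6.87 ± 0.390), gli1 (4.35 ± 0.119) and ihhb (0.227 ± 0.0252). The ranges of hhip and ptch1, of shha and gli2a, and of gli3 and ihha overlapped. With DAPT, ptch1 (24.5 ± 2.29) lay above hhip (18.2 ± 0.586) with no overlap. The ligand gene ihha, at 12.8 ± 1.39, moved above gli3 (8.43 ± 0.147) and also above gli2a (11.2 ± 0.768), whose range it overlapped. The gene shhb (4.57 ± 0.463) came down to the level of gli1 (4.48 ± 0.415), and their ranges overlapped.

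The wider pathway was described with a list of 54 genes by role, of which 51 were found and 50 tested, the 8 tested Hedgehog genes included. Of these, 13 were higher and 13 lower with DAPT, or 52.0% called beside 46.6% of all genes, with a median log2 fold change of -0.00472. Without the 9 genes it was 9 higher and 11 lower of 42. Without DAPT replicate 1 or without DAPT replicate 3, 7 of the list were higher. The fifth ligand gene of the list, dhh, known in mouse from Schwann cells and testis, had 94 to 202 counts per library and rose. The means of dhh were 4.80 ± 0.516 CPM with DMSO and 8.39 ± 1.20 with DAPT (log2 fold change 0.81 ± 0.13, edgeR adjusted p = 0.000416). It passed in all 16 alternatives. Its rise and that of ihha were the largest among the ligands.

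Among 9 genes of ligand lipidation and release 2 rose and 4 fell, beside 22.4% and 24.3% of all genes tested. The Scube proteins are secreted and help release the lipid-bound ligand from the cell surface. All 3 of their genes fell: scube3 from 12.6 ± 0.538 to 8.43 ± 0.962 CPM (-0.58 ± 0.10, adjusted p = 0.000556), scube2 from 15.3 ± 1.01 to 11.8 ± 0.157 (-0.37 ± 0.08, adjusted p = 0.00285) and scube1 by a smaller amount (-0.19 ± 0.07, adjusted p = 0.0418; 0.00706 to 0.173 over its alternatives). The Dispatched relative disp2 fell from 12.2 ± 0.681 to 7.31 ± 0.424 CPM (-0.74 ± 0.10, adjusted p = 5.89e-05). The falls of disp2, scube2 and scube3 passed in all 16 alternatives. In contrast disp1, whose protein exports the ligand from the cell, rose by 0.23 ± 0.09 (adjusted p = 0.0487) and hhatla by 0.26 ± 0.09 (0.0432), with an adjusted p of up to 0.551 and 0.405 over their alternatives. The gene hhat, which hhatla resembles by name, had -0.11 ± 0.22 and did not pass (edgeR adjusted p = 0.710). Its value was -0.351 to 0.0566 over its alternatives. Whether hhatla acts on the ligands was not tested.

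Of 8 receptor and co-receptor genes 3 rose and 3 fell, beside 22.4% and 24.3% of all genes tested. In TPM, for comparison, none of the 8 was higher in every DAPT library and 3 were lower in every one. Over all genes tested 15.1% were higher and 42.3% lower in this way. The rises were small. Beside ptch1, the gene of Smoothened, smo, changed by 0.21 ± 0.06 (adjusted p = 0.0164) and the co-receptor gene boc by 0.23 ± 0.07 (0.0122). Over their alternatives the adjusted p reached 0.577 for smo and 0.405 for boc, and neither passed in TPM or with library totals alone. The co-receptor gene cdon, related to boc, had 0.13 ± 0.06 and did not pass (adjusted p = 0.0991). Beside hhip, the endocytic receptor gene lrp2a (-0.31 ± 0.08, adjusted p = 0.00572) and the co-receptor gene gas1a (-0.22 ± 0.08, adjusted p = 0.0352) fell. The fall of lrp2a passed in all 16 alternatives and that of gas1a in 10.

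Of 12 intracellular regulators none rose and 2 fell, beside 22.4% and 24.3% of all genes tested. In TPM 5 of the 12 were lower in every DAPT library, as 42.3% of all genes were. Both that fell encode catalytic subunits of protein kinase A, which phosphorylates Gli proteins: prkacaa from 124 ± 3.29 to 107 ± 2.96 CPM (-0.21 ± 0.05, adjusted p = 0.00671) and prkacab from 36.7 ± 0.266 to 31.9 ± 1.62 (-0.20 ± 0.06, adjusted p = 0.0169). The call of prkacab was lost in 3 of 16 alternatives, with an adjusted p of up to 0.0782. The gene sufu, whose protein holds Gli factors in the cytoplasm, had -0.02 ± 0.06 (95% interval -0.15 to 0.11) and did not pass, though it did, below 0, in 3 alternatives. The remaining Gli gene, gli2b, had 0.08 ± 0.10 (adjusted p = 0.539), and its counts, not whole in 2 libraries, may include shared reads.

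Of 13 further target genes known from embryos 4 rose and 3 fell, or 53.8% called beside 46.6% of all genes tested. The forkhead genes foxf1, foxf2a and foxl1, Hedgehog targets in mesenchyme such as that of the gut, rose. The mean CPM of foxf1 was 27.5 ± 1.75 in the DMSO libraries and 45.6 ± 3.24 in the DAPT libraries (0.73 ± 0.07, adjusted p = 7.32e-06), foxf2a from 14.4 ± 0.106 to 24.7 ± 1.68 (0.78 ± 0.08, adjusted p = 5.97e-06) and foxl1 from 10.7 ± 0.664 to 15.8 ± 0.748 (0.57 ± 0.09, adjusted p = 0.000194). The growth gene mycn, a target in mouse cerebellar precursors, rose from 46.7 ± 2.32 to 78.1 ± 3.77 CPM (0.74 ± 0.06, adjusted p = 1.6e-06). Each of these 4 rises passed in all 16 alternatives, unlike those of ptch1 and gli1. All 4 genes also have other known regulators, and the cause of their rises was not tested.

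Among the other targets of the list none passed as higher, those known from the neural tube and muscle included. The floor plate gene foxa2, listed with the markers below and not here, did rise (0.33 ± 0.10, edgeR adjusted p = 0.0158). The oligodendrocyte and motor neuron precursor gene olig2 fell from 7.49 ± 0.680 to 4.90 ± 0.734 CPM (-0.61 ± 0.13, adjusted p = 0.00255). The engrailed genes en1a and en2a, listed under their older names eng1a and eng2a, also fell (-0.61 ± 0.20, adjusted p = 0.0241, and -0.34 ± 0.13, adjusted p = 0.0472). Over their alternatives the adjusted p reached 0.139 and 0.184. The other 6 targets did not pass, among them nkx6.2, a ventral neural tube gene, at -0.02 ± 0.11.

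**Figure D3:**
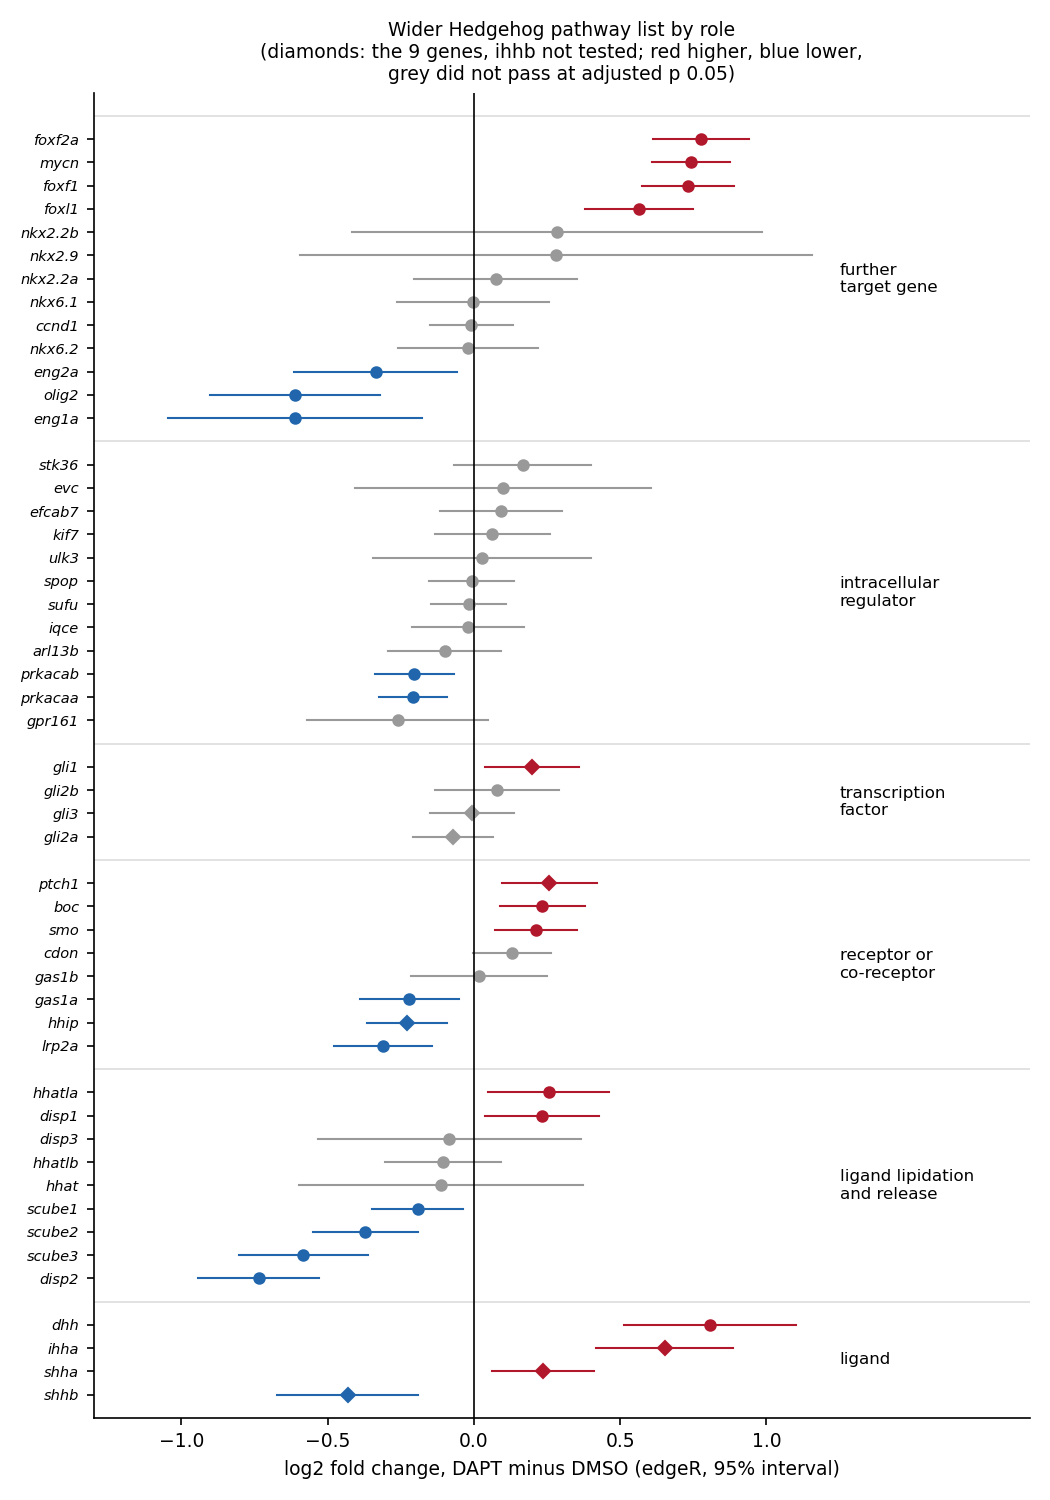
Log2 fold change of DAPT minus DMSO with its 95% interval (horizontal axis) for the 50 tested genes of the wider list, grouped by role, with the 8 tested Hedgehog genes as diamonds. The highest values are those of dhh, foxf2a, mycn, foxf1 and ihha, the lowest that of disp2, and most intracellular regulators span 0.

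Tissues that are known to make Hedgehog ligands or respond to them were followed by markers. Over all lists 45 of 58 markers, or 77.6%, were called, 23 higher and 22 lower, beside 46.6% of all genes tested. Of 10 cartilage markers 5 rose, 1 fell and 4 did not pass. In TPM 2 were higher in every DAPT library, 1 was lower in every one and 7 overlapped. This compares with 15.1% of all genes tested higher and 42.3% lower in every DAPT library. The cartilage collagen gene col2a1a rose by 0.42 ± 0.10 (adjusted p = 0.00425) and the cartilage matrix gene matn1 by 0.64 ± 0.15 (0.00482), and the summed level of the list was 668 to 896 CPM with DMSO and 974 to 1093 CPM with DAPT. The cartilage proteoglycan gene acana fell by 0.49 on the log2 scale (adjusted p = 0.000342), and the call of col2a1a, which makes up much of the sum, was kept in 13 of 16 alternatives. Of 5 floor plate markers 3 rose and 2 fell. Their sum, 168 to 183 CPM with DMSO and 162 to 165 CPM with DAPT, is carried by the axon guidance and adhesion genes spon1b (-0.24 ± 0.06, adjusted p = 0.00377) and ntn1b (-0.41 ± 0.07, adjusted p = 0.00043), which fell. The less abundant genes sspo (2.12 ± 0.15), foxj1a (1.12 ± 0.11) and foxa2 (0.33 ± 0.10) rose, the first 2 by more than the others fell. Of 2 notochord markers 1 fell and 1 did not pass, with sums of 23.3 to 31.3 and 16.0 to 17.3 CPM. Of 8 gut epithelium markers 5 rose and 2 fell, with vil1 at 1.04 ± 0.06 among the rises and apoa4b.1 (-1.02 ± 0.07) and chia.2 (-0.93 ± 0.13) the falls. Their sums overlapped, at 2310 to 2553 and 2509 to 2727 CPM. Much of each sum was apoa1a, at 1102 ± 37.1 CPM with DMSO and 1148 ± 55.5 CPM with DAPT. It did not pass (0.06 ± 0.06, edgeR adjusted p = 0.482), so the sums say little of the other gut markers.

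In the other lists, 4 of 7 neural markers fell and none rose, with sums of 831 to 1031 CPM with DMSO and 719 to 781 CPM with DAPT. All 5 retina markers fell, with sums of 1191 to 1860 and 638 to 662 CPM, including rho at -1.32 ± 0.12. Of 6 fibroblast and perivascular markers 4 fell, and of 5 fin fold and epidermis markers 1 rose and 3 fell. All 6 heart muscle markers rose, and 3 of 4 skeletal muscle markers did. The part of these tissue markers in the values of the Hedgehog genes was not tested.

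The genes whose TMM-scaled log2 CPM followed shha most closely over the 6 libraries, among 12060 genes with a mean of at least 10 CPM, were scn3b (Pearson r = 0.994), rnf220a (0.991) and mxi1 (0.990). Those closest to ptch1 were si:ch211-200p22.4 (0.994), polr2j (0.988) and sys1 (0.984). In total 69 genes exceeded a correlation of 0.95 with shha and 42 with ptch1. The named genes are the extremes of a search over 12060 genes with only 6 libraries, and they are given as a description only.

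Over the alternatives the Hedgehog genes fell into 3 classes. The changes of ihha, shhb and hhip kept their direction and passed in all 16. Those of shha, ptch1 and gli1 kept their direction but passed in 6, 10 and 4. The value of gli2a stayed below 0 and passed in 2, both in TPM, and that of gli3 passed in none.

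**Figure D4:**
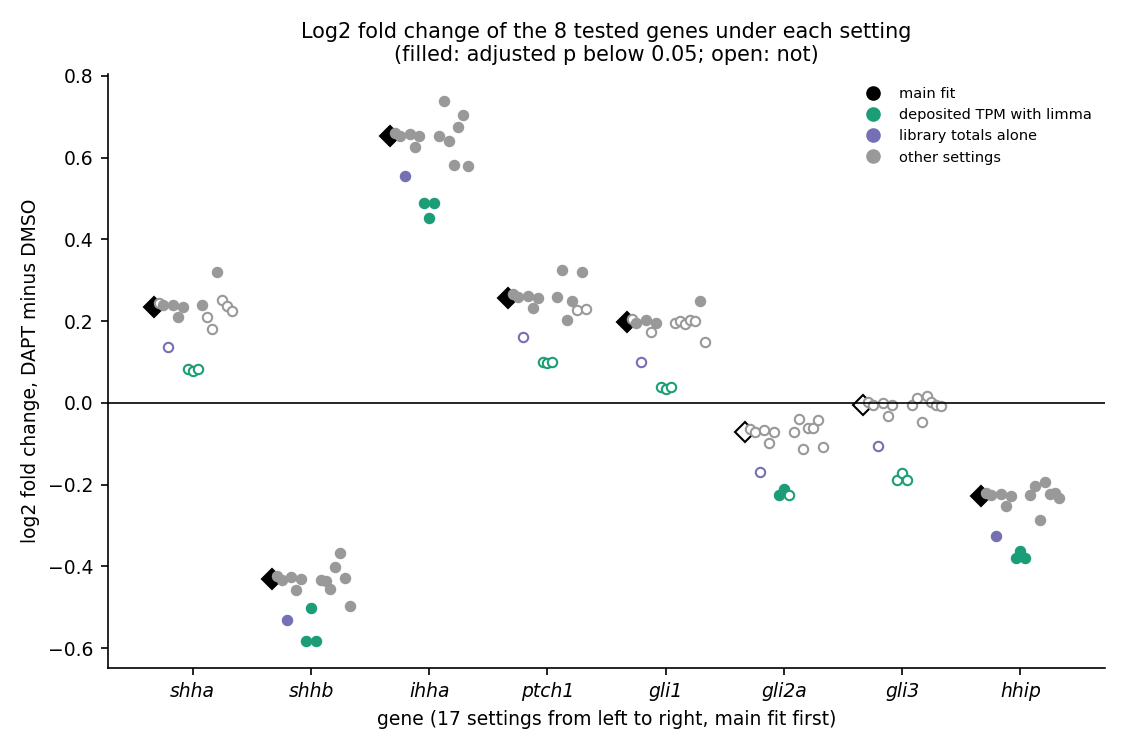
Log2 fold change of DAPT minus DMSO (vertical axis) of the 8 tested Hedgehog genes under the main fit and 16 alternatives, with filled symbols where the adjusted p was below 0.05. Symbols for ihha, shhb and hhip are filled throughout, and the values from library totals alone and from TPM lie below the main value for every gene.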

How the data were processed

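RNA from 3 DMSO and 3 DAPT libraries was sequenced. Per the file headers the authors deposited read counts, FPKM and TPM per gene. The authors' counts, as deposited, are estimated counts: 15% or more of the values per library carry decimals, read here as a sign of shared reads. The TPM were calculated by the authors. The deposited FPKM and the authors' group means were not used. The tools named in the submitters' processing notes are featureCounts 1.6.0, STAR 2.7.1a and edgeR, and the genome build is GRCz11, without roles. The annotation, strand setting and counting rules are not given in the sources used here.

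Counts were rounded and fitted with edgeR 4.0.16 in R 4.3.3 (filterByExpr, TMM factors, quasi-likelihood test between groups, 4 residual degrees of freedom, Benjamini-Hochberg adjustment over 22092 genes, threshold 0.05). The standard error is the log2 fold change divided by the square root of F. The fit was tested on simulated data in which most genes did not change, so that test could not probe the assumption behind the TMM factors. The 16 alternatives used DESeq2 1.42.0, limma-voom (limma 3.58.1), library totals alone, no filter, a filter of 5 CPM in 3 libraries, counts rounded down, limma on log2(TPM + 0.1) with and without a filter and on log2(TPM + 1), a replicate block, and leaving out each of the 6 libraries. Fold changes from TPM are on the log2(TPM + pseudocount) scale, which understates changes of low genes.

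The 9 genes and all lists were chosen with earlier results of these data known. All 9 are named, with every called gene of the wider list, a few others by role, and markers from among the 3 most counted of each list. The markers sspo, foxj1a, foxa2, acana, apoa4b.1 and chia.2 were added to these after their values were seen. Of the markers, 2 names were matched through RefSeq gene IDs, as were 4 of the wider list. RefSeq's gene table, of the later build GRCz12tu, served for names and for which genes overlap; no coordinates or sequences are given. A gene planned for the wider list is not reported here. Replicate libraries of a group differed by more than counting noise (chi-square per gene 1.95 to 10.8), and same-numbered libraries did not deviate together. The biological coefficient of variation was 6.82%.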

Additional observations from a re-analysis of the deposited data

How the results depend on the processing

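Over the alternatives ihha, shhb and hhip kept their direction and their call. Results that rested on the scaling were those of shha, ptch1 and gli1. With library totals alone their log2 fold changes were 0.136, 0.161 and 0.0998, in TPM with a pseudocount of 0.1 they were 0.0838, 0.101 and 0.0401 with or without the filter, and with a pseudocount of 1 they were 0.0786, 0.0974 and 0.0339; none passed. With DESeq2 shha (0.244) and gli1 (0.206) did not pass, nor did gli1 with the stricter filter (0.173) or the replicate block (0.196). The gene gli2a passed in TPM at -0.225 and, with a pseudocount of 1, at -0.210, and gli3 turned to 0.00257 with DESeq2. Leaving out 1 library gave 0.180 to 0.321 for shha, 0.202 to 0.325 for ptch1, 0.149 to 0.249 for gli1 and -0.0466 to 0.0181 for gli3.

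The number of Hedgehog genes that were higher was 4 in the main fit, 2 with DESeq2, 1 with library totals alone and in each TPM fit, and 1 to 3 with a library left out. In the wider list 13 were higher in the main fit, 9 with DESeq2, 6 with library totals alone and in each TPM fit, and 7 to 10 with a library left out; DESeq2 called 8 lower instead of 13. Over all genes 4940 were higher in the main fit and 2611, 2611 and 2568 in the TPM fits with pseudocounts of 0.1, 1 and 0.1 without a filter.

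Among other named genes, none of them called, cdon turned to -0.0246 in TPM (-0.0242 with a pseudocount of 1), and gli2b to -0.0194 with library totals alone and -0.0844 in TPM (-0.0714 with a pseudocount of 1). Without 1 library sufu ranged from -0.0473 to 0.0100 and nkx6.2 from -0.145 to 0.0601. The replicate numbers are shared by the groups, but libraries of the same number correlated at 0.00917, -0.0679 and -0.0255 in their deviations from group means, so the numbers were not taken to pair libraries. With the replicate block 4655 genes were higher and 5061 lower, and among the 8 Hedgehog genes no call but that of gli1 was lost. The mean log2 difference of shha, shhb and ihha from the response genes, without dhh, was 0.0768 higher with DAPT, though the groups overlapped. Library scaling cancels in this difference, so the alternatives that change only the scaling could not alter it. With each library left out the rise was 0.0531 to 0.120. Depth limits ihhb, at 4 to 6 counts per library.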
